A study of Mus musculus with 10 samples.

Results

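The genes described here are 8 genes of the pluripotency network, namely *Pou5f1*, *Nanog*, *Sox2*, *Klf4*, *Esrrb*, *Zfp42*, *Tdgf1* and *Dppa4*, out of 22359 protein-coding genes of the GENCODE M1 annotation (mouse build mm9). They were chosen by name and not by a rule on the values, though with earlier results of these data known. Every peak within 2.5 kb of a protein-coding transcription start site (TSS) of these genes, or over their bodies, was taken from 8 lists of histone mark peaks. These lists held 70826 peaks, of which 34 met that rule.

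The study compared 4 histone marks between 2 genotypes in mCherry+ cells sorted from embryoid bodies (EBs, aggregates of differentiating mouse embryonic stem cells) at day 4. In the *Scl* wt group (WT), mCherry was inserted into a single *Scl* allele and SCL stayed functional. In the *Scl* d/d group (Delta), made from that reporter line, both alleles lacked the basic helix-loop-helix domain through which SCL binds DNA. Each line descended from a single-cell clone, and the methods name J1 embryonic stem cells as the parent. The labels give the strain as C57Bl/6 X Sv129 for some libraries, and for the rest with Sv numbers that count up across the rows. This was not read as a difference in strain. *Drosophila* S2 cells were added to all samples before chromatin immunoprecipitation. Each mark was profiled in 1 library of each genotype. Differences between lists therefore carry no error and no test, and genotype, clone and library cannot be told apart.

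Pluripotency rests on a set of transcription factors that bind each other's regulatory regions. OCT4 (encoded by *Pou5f1*), SOX2 and NANOG form its core, while KLF4, ESRRB and REX1 (encoded by *Zfp42*) belong to the naive state of embryonic stem cells. Most of these genes are switched off by the time cells have entered the germ layers, with Polycomb complexes and DNA methylation among the means. H3K4me3 marks active and poised start sites, H3K27ac marks active promoters and enhancers, and H3K27me3 and H2AK119ub are laid down by the Polycomb complexes PRC2 and PRC1. Start sites that carry H3K4me3 together with H3K27me3 are termed bivalent.

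The 8 genes fell into 4 kinds. *Sox2*, *Klf4* and *Esrrb* were bivalent in both genotypes. *Pou5f1* and *Tdgf1* carried H3K27me3 in both genotypes and no H3K4me3 apart from a short peak at *Pou5f1* in Delta. *Zfp42* carried a short H3K4me3 peak alone. *Nanog* and *Dppa4* had no peak in any of the 8 lists. H3K27ac was called once among the 16 combinations of gene and genotype, at *Klf4* in Delta.

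The start regions themselves differed in CpG content, and 5 of them are shown with the 250 bases before the most 5′ TSS, read 5′ to 3′ on the strand of the gene from the mm9 genome. In the first 4, capitals mark CpG dinucleotides, of which the *Klf4* stretch held 32, *Zfp42* 9, and *Pou5f1* and *Tdgf1* 7 each. In *Nanog* capitals mark the octamer core TTTGCAT, 1 base, and the SOX core ACAAT, the arrangement bound by OCT4 and SOX2 together. The places are chr4:55545348-55545597 on the minus strand (*Klf4*), chr17:35642732-35642981 on the plus strand (*Pou5f1*), chr8:44392364-44392613 on the minus strand (*Zfp42*), chr9:110848663-110848912 on the minus strand (*Tdgf1*) and chr6:122657257-122657506 on the plus strand (*Nanog*).
Klf4: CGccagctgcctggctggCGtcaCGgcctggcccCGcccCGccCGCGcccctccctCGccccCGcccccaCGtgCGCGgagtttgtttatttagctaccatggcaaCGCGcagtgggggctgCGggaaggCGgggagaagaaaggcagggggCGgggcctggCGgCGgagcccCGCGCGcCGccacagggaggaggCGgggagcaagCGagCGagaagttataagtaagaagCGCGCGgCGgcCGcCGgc
Pou5f1: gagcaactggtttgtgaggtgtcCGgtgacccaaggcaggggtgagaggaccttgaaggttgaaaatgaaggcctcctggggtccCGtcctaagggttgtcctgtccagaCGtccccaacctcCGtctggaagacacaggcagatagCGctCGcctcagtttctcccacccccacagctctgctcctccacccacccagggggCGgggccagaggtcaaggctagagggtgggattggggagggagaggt
Zfp42: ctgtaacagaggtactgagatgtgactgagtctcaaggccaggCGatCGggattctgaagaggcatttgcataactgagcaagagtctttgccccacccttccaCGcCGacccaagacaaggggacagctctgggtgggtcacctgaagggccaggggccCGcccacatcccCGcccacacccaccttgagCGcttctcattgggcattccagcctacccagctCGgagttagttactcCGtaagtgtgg
Tdgf1: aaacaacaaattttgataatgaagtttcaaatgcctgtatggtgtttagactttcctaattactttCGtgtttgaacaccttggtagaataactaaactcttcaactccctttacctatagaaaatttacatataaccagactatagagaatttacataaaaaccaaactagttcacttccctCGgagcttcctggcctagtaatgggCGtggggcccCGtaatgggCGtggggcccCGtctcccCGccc
Nanog: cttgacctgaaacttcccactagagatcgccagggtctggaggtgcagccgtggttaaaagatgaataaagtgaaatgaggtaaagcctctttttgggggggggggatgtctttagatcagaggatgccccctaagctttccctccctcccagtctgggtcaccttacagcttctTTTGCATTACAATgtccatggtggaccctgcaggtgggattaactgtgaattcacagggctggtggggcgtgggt

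At the TSS, H3K4me3 was called at 4 of the 8 genes in WT and 5 in Delta, beside 60.7% and 60.3% of all protein-coding genes. H3K27me3 was called at the same 5 genes in both lists, beside 34.8% and 32.7% of all genes. H2AK119ub was called at 3 of the 8 genes in WT (*Pou5f1*, *Sox2*, *Esrrb*) and 2 in Delta (*Sox2*, *Esrrb*), where the shares of all genes were 9.21% and 5.0%. H3K27ac was called at 0 of 8 in WT and 1 in Delta, against 19.9% and 22.8%. With the gene bodies added the numbers for the 8 genes did not move, while the shares of all genes became 61.9% and 61.4% for H3K4me3, 20.8% and 23.6% for H3K27ac, 36.7% and 34.6% for H3K27me3, and 10.8% and 5.70% for H2AK119ub. The 8 genes thus stood above the share of all genes for both Polycomb marks in these libraries. For H3K27ac, 0 and 1 of 8 genes are too few to set apart from 19.9% and 22.8%. This is a description of 8 genes and was not tested.

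A call in 1 genotype only was seen for H3K4me3 at 1 of the 8 genes (1.74% of all genes), for H3K27ac at 1 (9.80%), for H2AK119ub at 1 (5.94%) and for H3K27me3 at 0 (12.0%). *Pou5f1* gave the H2AK119ub call in WT only, which 5.08% of all genes shared, and the H3K4me3 call in Delta only, which 0.684% shared. Among the 2060 genes with H2AK119ub in WT, such a call in WT only was common, at 1135 genes. The whole H2AK119ub list held 4922 peaks in WT and 2388 in Delta. *Klf4* gave the H3K27ac call in Delta only, as did 6.37% of all genes. The WT and Delta lists held 17 member peaks each, and 28 of the 34 overlapped a peak of the same mark in the other genotype.

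Peak strength set a limit to these calls. The deposited −log10 q reached 3 in 8 of 9 H3K4me3 peaks and 14 of 18 H3K27me3 peaks at the 8 genes, but in 0 of 6 H2AK119ub peaks (1.50 to 2.44) and 0 of 1 H3K27ac peaks (2.98). The H2AK119ub calls at the 8 genes were therefore weak by this absolute limit, but most were not weak for their lists. Their fold enrichments over background were higher than 61.0% of the list at *Pou5f1* (WT), and 75.6% (WT) and 92.3% (Delta) at *Sox2*. At *Esrrb* they were higher than 16.8% and 84.9% (WT) and 80.7% (Delta). The share of each whole list that reached the limit is not given here. A missing call is not a measured absence.

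**Figure D1:**
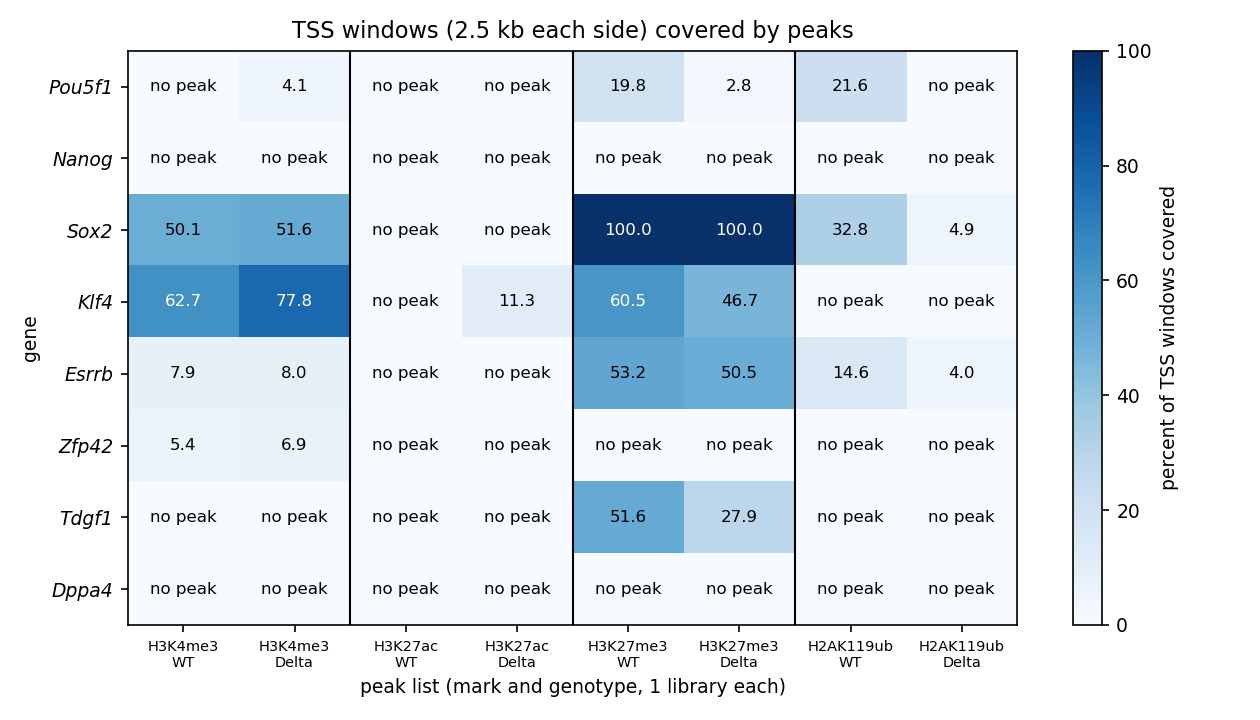
Percent of the TSS windows of each gene (rows) covered by peaks of each list (columns, mark and genotype, 1 library each), where the windows run 2.5 kb to each side of every protein-coding TSS. *Nanog* and *Dppa4* have no peak in any list, and *Sox2* is covered to 100% by H3K27me3 in both genotypes.

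*Pou5f1*, which encodes OCT4, was the member whose combination of marks differed most between the lists. The gene (ENSMUSG00000024406.9) lies on the plus strand at chr17:35642982-35647721. In WT an H3K27me3 peak of 1654 bp began at -27 bp from the TSS and ended in the gene, and an H2AK119ub peak of 1800 bp began at -1339 bp from the TSS. These peaks shared 488 bp. In Delta the H3K27me3 peak was 230 bp long, with 0% of its list shorter, and began 1100 bp after the TSS. Delta had no H2AK119ub peak there, the nearest being 27.1 kb downstream.

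In Delta only, *Pou5f1* had an H3K4me3 peak of 343 bp, from 254 bp after the TSS. Its fold enrichment over background was 3.31, higher than 2.95% of the list, and its −log10 q was 1.86, the lowest of the 9 H3K4me3 peaks. It shared 0 bp with the H3K27me3 peak, so the bivalent label holds for the TSS windows and not for a shared stretch of chromatin. H3K27me3 with H2AK119ub and no other mark, the WT combination of *Pou5f1*, was found at 144 genes (0.644%). Of these, 22 (15.3%) carried H3K4me3 with H3K27me3 in Delta, as *Pou5f1* did.

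*Sox2* lay inside the longest Polycomb domain of the 8 genes. The gene (ENSMUSG00000074637.3) is on the plus strand at chr3:34548927-34551383, and its product is a partner of OCT4 that is also a factor of neural progenitors. The WT H3K27me3 peak was 34609 bp long, longer than 99.8% of its list, and ran from -11573 bp to 23035 bp relative to the TSS. In Delta that stretch was overlapped by 2 peaks of 19213 bp and 14171 bp with a gap of 1654 bp between them, which together covered 95.2% of it. Such a split was common among long domains, and in both directions. Of 41 WT H3K27me3 peaks of at least 30000 bp, 13 (31.7%) overlapped 2 or more Delta peaks. Of 33 Delta peaks of that length, 13 (39.4%) overlapped 2 or more WT peaks.

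H3K4me3 at the *Sox2* TSS was of similar length in both lists, 2569 bp (WT) against 2647 bp (Delta), all of it inside H3K27me3. H2AK119ub over the *Sox2* gene was 1877 bp long in WT and 252 bp in Delta. Over the whole WT domain the order was the other way round. H2AK119ub covered 2662 bp of it in 3 WT peaks and 5434 bp in 4 Delta peaks, that is 7.69% and 15.7%. The Delta peaks lay after the TSS, from 1743 bp to 17112 bp, and the WT peaks were spread over both sides. The shorter H2AK119ub of Delta at the *Sox2* gene was thus not seen over the domain around it.

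*Klf4*, a zinc finger factor of the naive state and of reprogramming, was the only member with H3K27ac and had the broadest H3K4me3. The gene (ENSMUSG00000003032.7) lies on the minus strand at chr4:55540013-55545347. H3K4me3 spanned the TSS over 3577 bp in WT and 4442 bp in Delta, longer than 97.1% and 99.2% of the peaks in their lists. It covered 62.7% of the TSS windows in WT and 77.8% in Delta. That difference of 15.2 percentage points was higher than those of 99.2% of the genes with the mark. It lay in the outer part of the windows, since at a TSS distance of 1000 bp it was 0.0.

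H3K27me3 did not cover the first 3 TSSs of *Klf4* but flanked them on both sides, while the fourth, 705 bp into the gene, lay inside the peak within the gene in both lists. In WT the peaks were 2106 bp and 1348 bp long. Their fold enrichments were 7.10 within the gene and 3.62 upstream, higher than 92.2% and 46.3% of that list. In Delta the peaks were 1737 bp and 925 bp long, with 9.78 and 4.26, which were higher than 98.4% and 61.1% of the Delta list. The gap between them measured 1147 bp (WT) and 1602 bp (Delta). The H3K27ac peak of Delta, 645 bp long from -969 bp to -325 bp relative to the TSS, fell within this gap and shared 0 bp with H3K27me3. Of the 2284 genes with both marks at the TSS in Delta, 228 (9.98%) likewise had no base in common to both. Its fold enrichment was 4.54, higher than 61.0% of the list, and the nearest WT H3K27ac peak lay 181.8 kb away.

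The 300 bases at the centre of this H3K27ac peak (chr4:55545844-55546143, mm9, minus strand, CpG in capitals) held 25 CpG dinucleotides.
Klf4 H3K27ac: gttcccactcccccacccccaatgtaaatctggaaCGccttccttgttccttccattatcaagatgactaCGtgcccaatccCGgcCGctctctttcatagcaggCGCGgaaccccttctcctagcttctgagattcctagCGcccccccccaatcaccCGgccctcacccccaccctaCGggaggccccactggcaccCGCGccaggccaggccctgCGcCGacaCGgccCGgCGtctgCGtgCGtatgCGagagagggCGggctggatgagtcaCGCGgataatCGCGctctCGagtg

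*Esrrb*, an orphan nuclear receptor of the naive network, carried its marks at an inner start site. The gene (ENSMUSG00000021255.10) runs over 160512 bp of the plus strand at chr12:87702067-87862578 and has 4 TSSs. The most 5′ TSS had no mark within 2.5 kb in either genotype, and the nearest H3K27me3 peaks began 3.1 kb (WT) and 3.0 kb (Delta) after it. At the second TSS, 60527 bp further on, H3K4me3 peaks of 1209 bp and 1219 bp lay inside H3K27me3 peaks of 7154 bp and 6737 bp in WT and Delta. Those H3K27me3 peaks had fold enrichments of 8.26 and 10.13, higher than 96.7% and 98.9% of their lists.

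H2AK119ub at the same *Esrrb* site was called as peaks of 1465 bp and 764 bp in WT and as a single peak of 609 bp in Delta. The fourth TSS, at 109000 bp, carried H3K27me3 without H3K4me3, with main peaks of 2645 bp (WT) and 2871 bp (Delta). The inner site and the outer one also differed in sequence. Observed over expected CpG in the 1000 bp around the TSS was 0.28 at the first site and 0.66 at the second. The 250 bases before the second site had a ratio of only 0.19 and held 3 of the 55 CpG dinucleotides in its 1000 bp. The rest of those 1000 bp was not divided into parts before and after the start.

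*Zfp42*, whose product REX1 is a common marker of embryonic stem cells, had H3K4me3 and no other mark. The gene (ENSMUSG00000051176.5) is on the minus strand at chr8:44380422-44392363. Its peaks were 272 bp in WT and 347 bp in Delta, longer than 4.71% and 6.82% of their lists. Fold enrichments were 3.75 and 4.63, higher than 13.5% and 26.2% of their lists. They shared 143 bp. The nearest H3K27me3 peak lay 1624.5 kb away in WT and 1626.1 kb away in Delta.

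*Tdgf1* encodes CRIPTO, a membrane-bound co-receptor for the ligand NODAL, and carried H3K27me3 alone. The gene (ENSMUSG00000032494.8) is on the minus strand at chr9:110842114-110848662. The H3K27me3 peak measured 2581 bp in the WT list against 1397 bp in the Delta list. Its end within the gene was at nearly the same place in both, while its upstream end moved from -1216 bp to -29 bp relative to the TSS. Coverage of the TSS window was 51.6% in WT and 27.9% in Delta, and 2.95% of genes with the mark had a lower difference. The nearest H3K4me3 peaks lay at *Lrrc2*, 7.4 kb (WT) and 7.5 kb (Delta) upstream. The annotation holds 1 pseudogene named after *Tdgf1*. Reads with several matches in the genome were discarded in mapping, according to the study's supplement.

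*Nanog* (ENSMUSG00000012396.5, plus strand, chr6:122657507-122664651), a homeobox factor of the core, had no peak at its TSS or over its body. The nearest H3K4me3 was at *Slc2a3*, 32.8 kb (WT) and 33.8 kb (Delta) downstream. The nearest H3K27ac lay 54.5 kb and 55.3 kb downstream. The *Nanog* promoter held the octamer and SOX pair at -75 to -63 from the TSS, on either strand found in 4 of 22359 promoters of that length (0.0179%). The octamer core alone stood in 3.90% of promoters, among them those of *Nanog*, *Sox2* and *Zfp42*. A match in sequence does not show that a factor was bound in these cells.

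*Dppa4* (ENSMUSG00000058550.7, plus strand, chr16:48283848-48294405), which encodes a chromatin-associated protein of early embryos and germ cells, was likewise without a peak. The nearest H3K4me3 peaks lay 708.9 kb (WT) and 709.2 kb (Delta) downstream, and the nearest H3K27ac in WT was 29.8 kb upstream. Having no mark at the TSS in both genotypes was common, since 8048 of the other genes (36.0%) shared it.

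**Figure D2:**
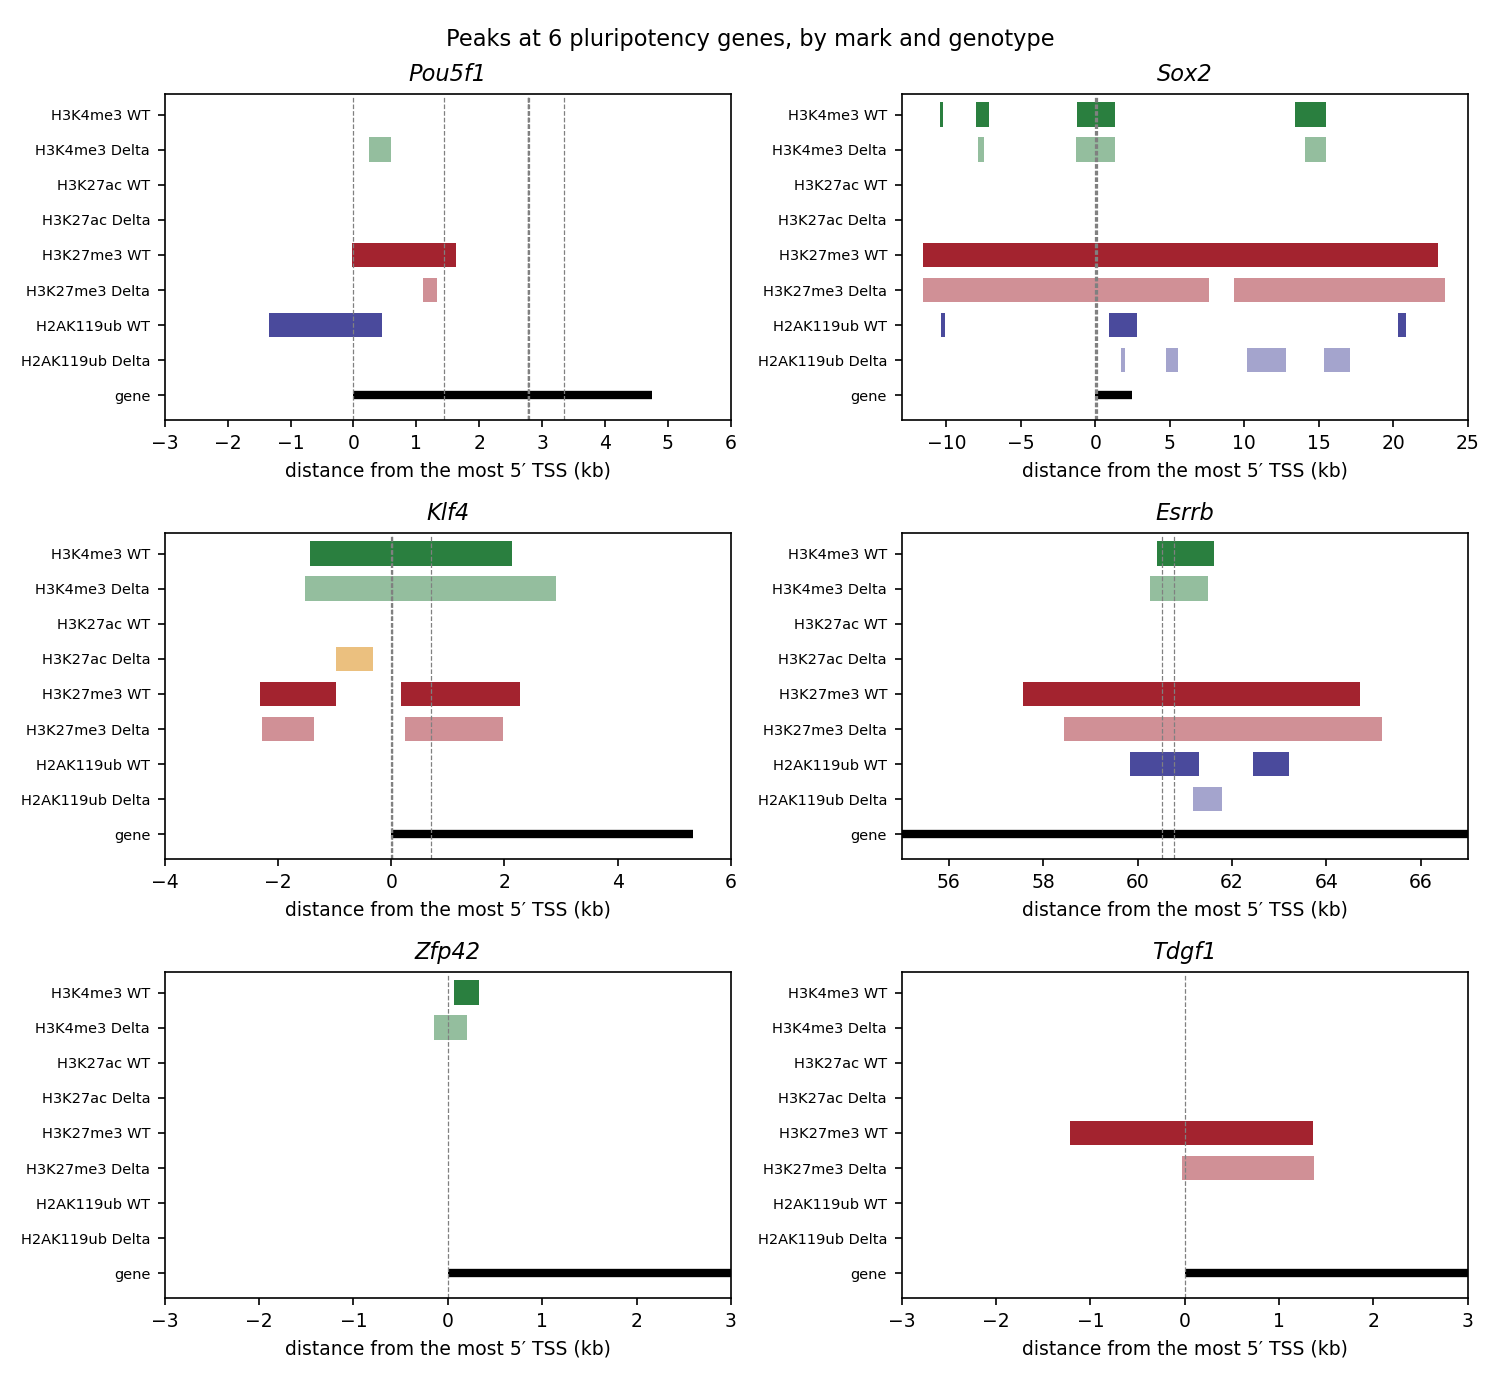
Peaks of the 8 lists at the 6 genes with a peak, by distance from the most 5′ TSS (kb, in the direction of transcription), with dark bars for WT, light bars for Delta, a black bar for the gene and dashed lines for each protein-coding TSS. *Esrrb* is drawn around its inner pair of TSSs, and the *Sox2* panel shows every peak over the WT H3K27me3 domain of 34609 bp.

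CpG content gave a scale on which the members could be set against all genes. Observed over expected CpG around the most 5′ TSS was 0.96 at *Klf4*, 0.83 at *Sox2*, 0.60 at *Tdgf1*, 0.49 at *Zfp42*, 0.39 at *Dppa4*, 0.33 at *Pou5f1*, 0.29 at *Nanog* and 0.28 at *Esrrb*, beside a median of 0.55 over all genes. *Klf4* and *Sox2* thus had CpG-rich start sites, and *Pou5f1*, *Nanog*, *Esrrb* and *Dppa4* CpG-poor ones. H3K4me3 in WT was called at the most 5′ TSS of 16.8% of the 4004 genes between 0.2 and 0.4, where these 4 genes lie. It was called at 71.5% of genes between 0.4 and 0.6, 96.4% between 0.6 and 0.8 and 99.0% above.

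*Tdgf1*, at the lower edge of the range from 0.6 to 0.8, lacked the H3K4me3 of most genes there. Of that range, 79 of 5642 genes (1.40%) had H3K27me3 without H3K4me3 in WT, and 88 (1.56%) in Delta. In the range below, from 0.4 to 0.6, the shares were higher, at 6.81% and 7.22%. *Pou5f1*, with H3K27me3 and no H3K4me3 in WT, shared that with 178 of the 4004 genes in its range (4.45%). *Zfp42* belonged to the larger share of its range with H3K4me3.

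**Figure D3:**
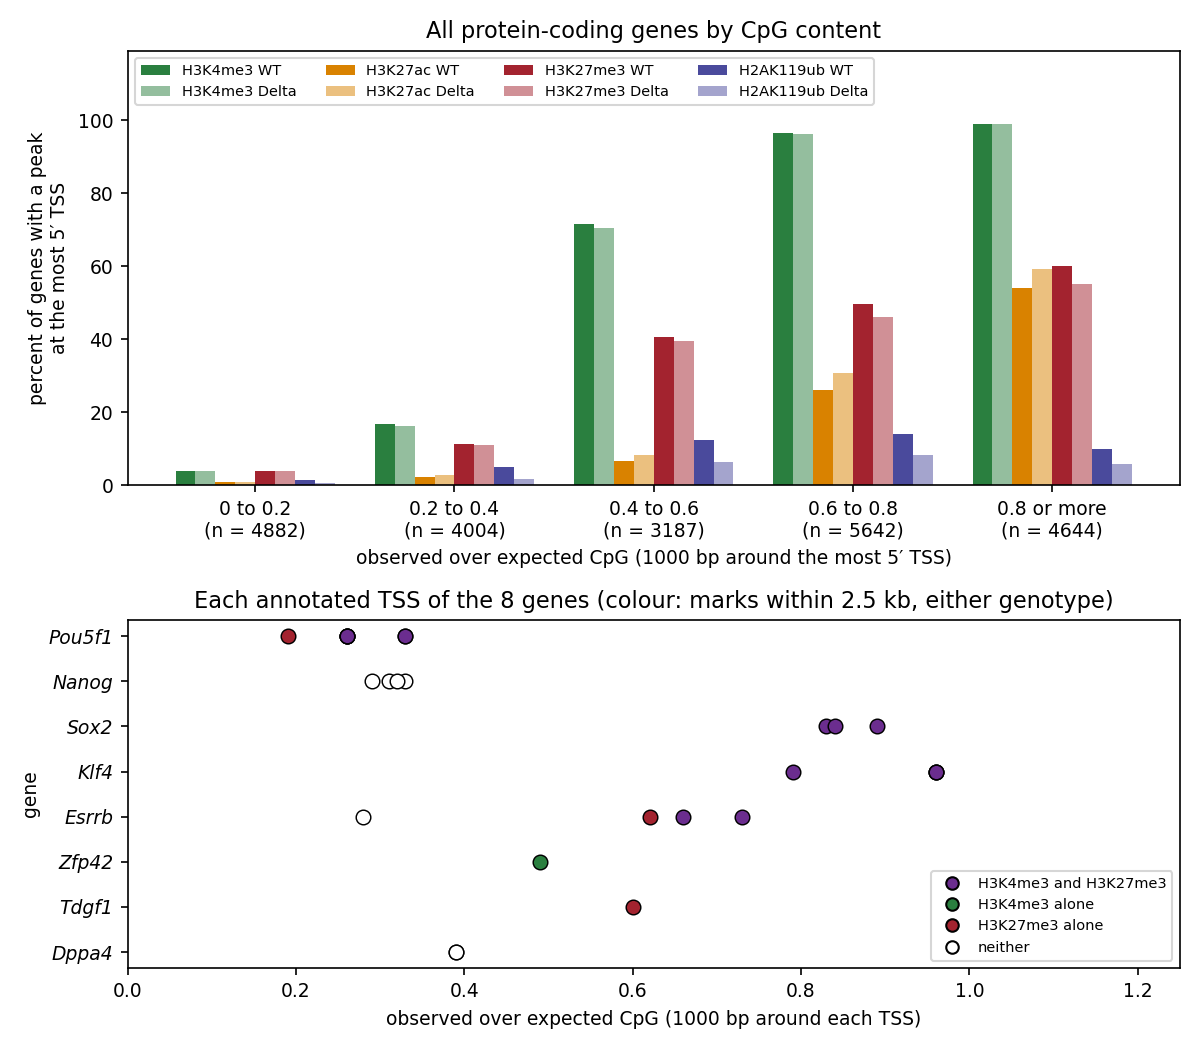
Top, percent of all protein-coding genes with a peak of each list at the most 5′ TSS (bars, dark for WT and light for Delta), by observed over expected CpG in the 1000 bp around it. Bottom, that ratio at each TSS of the 8 genes, coloured by the marks within 2.5 kb in either genotype, where the TSSs of *Nanog* and *Dppa4* are empty circles at the low end.

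Set side by side, the covered part of the TSS windows moved one way for H3K4me3 and mostly the other way for the Polycomb marks. Coverage follows the length of peaks and not their strength. The fold enrichment of H3K27me3 ranked higher within its list in Delta at *Klf4* and the inner *Esrrb* site. It ranked lower there at *Pou5f1*, *Sox2* and *Tdgf1*. H3K4me3 coverage was higher in Delta at 5 of 5 members with the mark, by 0.1 percentage points at *Esrrb*, 1.5 at *Sox2* and *Zfp42*, 4.1 at *Pou5f1* and 15.2 at *Klf4*. Of all genes with the mark, 33.1% were higher in Delta, and the median difference was -1.60 percentage points. The values at *Esrrb*, *Sox2* and *Zfp42* correspond to 10 to 78 bp, and at a TSS distance of 1000 bp those of *Sox2* and *Klf4* were 0.0.

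H3K27me3 coverage was lower in Delta at 4 of 5 members, by -2.7 percentage points at *Esrrb*, -13.9 at *Klf4*, -17.1 at *Pou5f1* and -23.7 at *Tdgf1*, and did not differ at *Sox2*, where the window was full. Of all genes with the mark, 49.7% were lower, and the median difference was 0.00. At a TSS distance of 1000 bp *Esrrb* turned to 5.7, *Klf4* became -3.6, *Pou5f1* -26.6 and *Tdgf1* -48.5. H2AK119ub coverage was lower in Delta at 3 of 3 members, by -10.6 at *Esrrb*, -21.6 at *Pou5f1* and -27.8 at *Sox2*, but 77.2% of all genes with the mark were lower too. The *Sox2* value became -8.5 at a TSS distance of 1000 bp and -15.4 with peaks joined up to 3000 bp apart, and that of *Esrrb* became -18.2 with joined peaks and 0.0 at the most 5′ TSS alone. The *Pou5f1* value became -36.0 at the most 5′ TSS alone. Over the whole WT H3K27me3 domain of *Sox2* the order was reversed, with 2662 bp of H2AK119ub in WT and 5434 bp in Delta.

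**Figure D4:**
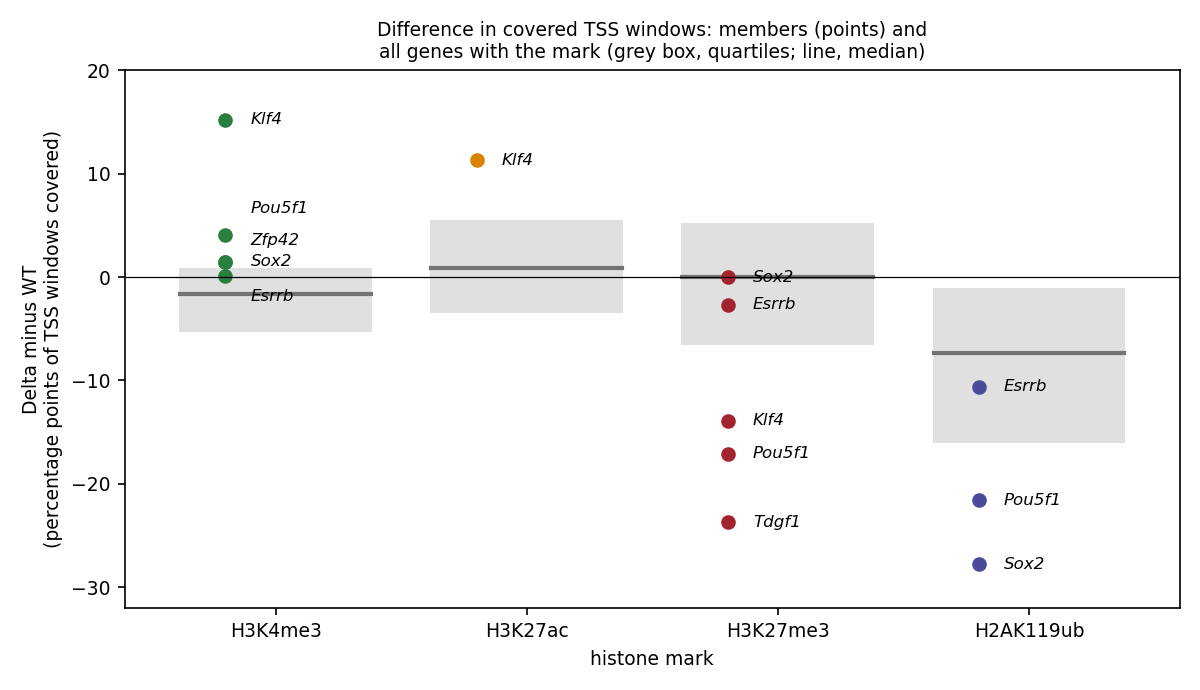
Delta minus WT in the percent of the TSS windows covered, in percentage points, for each mark, with a point for each member that has the mark in either genotype and a grey box for the quartiles of all genes with the mark (line, median). The H3K4me3 points lie at or above 0.1, and the H2AK119ub points lie below the median of all genes.

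Markers of the lineages in the sort moved with genotype as well. Among 8 blood and endothelial genes, H3K27ac was called at 4 in WT (*Tal1*, *Lmo2*, *Gata2*, *Fli1*) and 0 in Delta. The shares of all genes were 19.9% and 22.8%. H3K4me3 coverage was lower in Delta at 7 of 7 genes with the mark, beside 66.8% of all genes with it. H3K27me3 coverage was higher at 5 of 5, beside 43.5%. *Pecam1* had no mark in either genotype, and *Cdh5* had H3K4me3 in WT only. The TSS windows of *Tal1*, which encodes SCL, were covered by H3K27ac to 22.7% in WT and had no such peak in Delta. Peak lists do not show the deletion itself. Among 6 genes of early, paraxial and cardiac mesoderm, H3K4me3 coverage was higher in Delta at 6 of 6. The share of all genes with the mark was 33.1%. H3K27me3 coverage was lower at 5 of 5, beside 49.7%, and H3K27ac was called at 0 in WT and 2 in Delta. Markers of endoderm (3 of 4) and of neural cells (3 of 3) were bivalent in both genotypes, beside 32.4% (WT) and 30.1% (Delta) of all genes. *Sox1*, also on the neural list, was not found among the protein-coding genes of the annotation. The part of these lineage differences in the values of the pluripotency genes was not tested. In pools of sorted cells, a mark in fewer cells and less of it in each cell cannot be told apart, and both marks of a bivalent gene may come from different cells.

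Of the other 22 genes of the naive and core network, 17 had H3K4me3 in each genotype, beside 60.7% (WT) and 60.3% (Delta) of all genes. H3K27me3 was called at 16 in each, beside 34.8% and 32.7%, and 14 were bivalent in each, beside 32.4% and 30.1%. H3K27ac was called at 5 of them in WT and 7 in Delta, beside 19.9% and 22.8% of all genes. H2AK119ub was called at 7 and 5, beside 9.21% and 5.0%. Here H3K4me3 coverage was lower in Delta at 12 of 17 genes, beside 66.8% of all genes with the mark. H3K27me3 coverage was lower at 6 and higher at 8 of 17, beside 49.7% and 43.5% of all genes with it. For these marks the directions seen at the 8 genes were not those of most genes of the longer list. H2AK119ub coverage was lower in Delta at 5 of 7 genes with the mark, the direction also seen at the 8 genes. Of all genes with H2AK119ub, 77.2% were lower too. *Dppa2*, the partner of *Dppa4* and its neighbour on chromosome 16, had no mark in either genotype, as did *Tcl1* and *Dppa5a*. *Dppa3* and *Gdf3*, which lie near *Nanog* on chromosome 6, had H3K27me3 alone in both, with coverage of 31.9% and 24.1% in WT and 35.0% and 18.9% in Delta.

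Of 12 genes of the Nodal pathway, in which *Tdgf1* acts, 9 had H3K4me3 in WT and 10 in Delta. The shares of all genes were 60.7% and 60.3%. H3K27me3 was called at 7 in each, beside 34.8% and 32.7%. None lacked all marks, whereas 36.6% (WT) and 37.0% (Delta) of all genes did. The ligand gene *Nodal* and the inhibitor gene *Lefty1* were bivalent in both genotypes, while the inhibitor gene *Lefty2*, like *Tdgf1*, had H3K27me3 without H3K4me3. *Cfc1*, which encodes the co-receptor CRYPTIC of the same family as CRIPTO, had H3K27me3 alone in WT, over 23.5% of its windows. In Delta it had H3K4me3 over 39.1% and H3K27ac over 6.0%, and no H3K27me3. *Tdgf1* itself kept H3K27me3 as its single mark in both.

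The genes most like each member were those with the smallest mean difference in covered percentage over the 8 lists. For *Pou5f1* they were *Crip3*, *Vsig8* and *Smug1*, with mean absolute differences of 2.44, 2.57 and 2.88 percentage points, and none of these had H3K4me3 in Delta. For *Sox2* they were *Adamts2* (2.44) and *Trim67* (2.76), with H3K27me3 over 97.2% to 100% of their windows. For *Klf4* they were *Ccnd2* (2.93), *Nrp2* (3.84) and *Cdk6* (4.48), of which *Cdk6* also had H3K27ac in Delta only. For *Esrrb* they were *Chd5* (1.03) and *Prrt3* (1.65). For *Zfp42* they were *Pycard* (0.0125), *Zfp386* (0.0517) and *Zfp940* (0.0620), and for *Tdgf1* *Nanos2* (0.480), *Gas2l2* (0.720) and *Tnfrsf8* (0.842).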

How the data were processed

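Peaks of H3K4me3, H3K27ac, H3K27me3 and H2AK119ub in WT and Delta cells came from 8 deposited lists, and 2 input libraries were not analysed here. According to the methods and the submitters' processing notes, the authors used Trim Galore, Bowtie, SAMtools and bedtools with the mm9 and dm3 genomes, and MACS2 2.0.10 called broad peaks in each library against the input of its genotype, without pooling. The fold enrichment, a ratio to the local background, and the −log10 of the p-value and of the q-value are as deposited by the authors. Ranks of peaks were taken within a list only. The limits on −log10 q and fold enrichment, and the lowest values of member peaks, were taken across lists. The score deposited by the authors was not used. Spike-in scaling was stated for signal densities, not for peak calls, so levels of a mark cannot be compared between lists. Weaker regions (q above 0.0500) are not listed, and depth cannot be read from the lists. Read totals given in the study's supplement were not used here.

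Genes and TSSs are those of GENCODE M1, without mitochondrial genes. A peak counted from 1 bp of overlap. Sequences were read from the NCBIM37 (mm9) genome, and motifs were searched on both strands. Overlaps were computed in Python 3.11.15 with NumPy 2.4.6 and tested on simulated data, where 100% of 200 genes given a peak among 22359 were found. No test between genotypes was possible with 1 library each. The members and lists were chosen with earlier results of these data known. All members, the genes of the lists and the 3 genes most like each member were eligible to be named, where *Nanog* and *Dppa4* tied with all other genes without a peak. Some of these genes are not reported here. Genes beside the nearest peaks were named after their values were seen.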

Additional observations from a re-analysis of the deposited data

How the results depend on the processing

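No paired analysis was possible because each genotype had a single library per mark. Of 140 alternative counts of members, 118 stayed within 1.5 times the count reported and 22 moved. Where a −log10 q of 3 was required, the numbers of members became 0 for H3K27ac in Delta, 3 for H3K27me3 in Delta, and 0 for H2AK119ub in both genotypes, at the TSS and with the body alike. The calls in 1 genotype only then became 0 for H3K4me3, H3K27ac and H2AK119ub and 1 for H3K27me3. With an overlap of at least 500 bp, the members became 3 for H3K4me3 in Delta and 1 for H2AK119ub in Delta, and the calls in 1 genotype only 0 for H3K4me3, 1 for H3K27me3 and 2 for H2AK119ub. A TSS distance of 1000 bp gave 1 member with H2AK119ub in Delta and 2 with it in 1 genotype only, and the most 5′ TSS alone gave 1 in Delta. A fold enrichment of at least 3, a TSS distance of 5000 bp and joined peaks moved no count. The fold enrichment limit could move no count or coverage difference, since the lowest value of a member peak was 3.31. Its unmoved values are part of the totals given here. Counts at the TSS and with the body largely repeat each other, so the 140 are not independent.

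Of 65 alternative coverage differences, 30 stayed the same, 34 moved with the same sign or to 0.0, and 1 turned, namely H3K27me3 at *Esrrb*, from -2.7 to 5.7 percentage points at 1000 bp. At that distance H3K4me3 at *Sox2* and *Klf4* no longer differed (0.0). With the −log10 q limit the H3K4me3, H3K27me3 and H2AK119ub differences at *Pou5f1* all became 0.0, because no peak was left, and that of *Tdgf1* became -51.6. The cause of other moves was not tested. Depth was not used here, which limits every comparison of weak calls between libraries.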

Other observations

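Genes of the primed epiblast, the state that follows the naive one, were marked more evenly than the 8 genes. All 9 listed genes had H3K4me3 in both genotypes, beside 60.7% (WT) and 60.3% (Delta) of all genes. In both, 8 had H3K27me3, beside 34.8% and 32.7%, and 0 had H3K27ac, beside 19.9% and 22.8%. *Dnmt3b*, a DNA methyltransferase gene, had H3K4me3 alone. *Foxd3*, a forkhead factor gene, had H3K4me3 over 36.6% of its TSS windows in WT and 5.8% in Delta, under H3K27me3 over 100% in both. *Zic2*, a zinc finger factor gene, had H3K27me3 over 66.1% in WT and 44.3% in Delta.

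Within the naive and core list, H3K27ac moved in both directions. *Klf2* had it in WT only, over 9.6% of its windows. *Lin28a*, *Zscan10* and *Mybl2* had it in Delta only, over 19.0%, 1.9% and 2.6%. *Tbx3*, which also acts in mesoderm, had it in both, over 3.1% in WT and 15.5% in Delta. *Gbx2* kept H2AK119ub over 82.9% in WT and 82.0% in Delta, the highest of the 22 genes. These values come from 1 library each and were not tested.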
